A study of Mus musculus with 12 samples.

Results

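The genes described are 9 that mark the B cell lineage in the mouse: Vpreb1, Vpreb3, Igll1, Ighm, Cd79a, Cd79b, Blnk, Pax5 and Ms4a1. They were found by symbol among the 56748 Ensembl genes counted in each library, and all 9 passed the filter on low counts that left 18438 genes for testing. Every library came from Lin-Sca+Kit+ cells, the sorted fraction of bone marrow (BM) in which stem and multipotent progenitor cells are concentrated. B6.SJL recipients (CD45.1, aged 8 to 12 weeks) had received 2 irradiation doses of 4.25 Gy, 3 h apart, and then 2000000 BM cells (CD45.2) of SCLtTA/BCR-ABL double transgenic mice. In these donor cells the tetracycline transactivator is driven by a stem and progenitor cell enhancer of the SCL gene, so that human BCR::ABL1 is off while tetracycline (TET) is in the drinking water. All recipients drank TET for 2 weeks after transplant. TET was then withdrawn for 2 weeks in the CML 2wk group (BCR::ABL1+, 6 libraries) and continued in the CTRL group (BCR::ABL1-, 6 libraries), and CD45.2+ cells were sorted from both. Per the methods the donor cells were a frozen pool from double transgenic males and females, and recipients were of either sex. The labels give male for every CTRL library and female for every CML 2wk library without saying whether this is the recipient, so that labelled sex and group cannot be told apart. Labels do not say that each library was a separate mouse, and p-values then measure the spread between these libraries.

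B cells arise from lymphoid-primed progenitors under the factors E2A (Tcf3), Ebf1 and Pax5. A precursor first joins its heavy chain gene segments, and the new mu heavy chain, encoded by Ighm, reaches the surface with a surrogate light chain made of VpreB and lambda5 (Igll1). Igα (Cd79a) and Igβ (Cd79b) carry the signal of this pre-B cell receptor, and of the later B cell receptor, into the cell through adaptors such as Blnk. Ms4a1 encodes CD20, a surface protein of B cells that stays on until plasma cell differentiation.

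Depth was 22804754 to 41832868 counts per CTRL library and 16150817 to 25070105 per CML 2wk library. The mitochondrial share of counts was 0.816% to 1.29% for CTRL libraries and 2.26% to 2.97% for CML 2wk libraries, and 26783 to 28602 against 22965 to 25726 genes had a count, both without overlap between the groups, and their part in the differences between groups was not tested. Values are CPM, counts scaled to library size with TMM factors, and a count of 0 allows up to 3 counts, or 0.0717 to 0.132 CPM in a CTRL library and 0.120 to 0.186 CPM in a CML 2wk library. These limits cover counting error only. The human fusion is not among the counted genes. The mouse genes Abl1 (log2 fold change -0.78, SE 0.074) and Bcr (-0.71, SE 0.077) were both lower in CML 2wk, with edgeR adjusted p-values of 6.11e-07 and 2.24e-06. Of the sort markers, Kit fell (log2 fold change -0.86, SE 0.10, edgeR adjusted p = 4.68e-06) but stood at 323 CPM or more in every library. Ly6a, which encodes Sca-1, was at 27.2 to 74.1 CPM over both groups (log2 fold change 0.38, SE 0.17, adjusted p = 0.0660).

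Blnk and Pax5 were the members that fell after BCR::ABL1 induction. The median library was 5.86 times lower for Blnk and 6.60 times lower for Pax5, and the fitted log2 fold changes were -1.75 (SE 0.48) and -2.07 (SE 0.72). A further 6 members had negative fold changes whose adjusted p did not pass 0.05, and Cd79b had a fold change close to 0. The count of 2 lower members of 9 (22.2%) stands beside 29.0% of all tested genes called lower, and 0 members were called higher beside 30.6% of all genes (59.5% in either direction, edgeR quasi-likelihood test, Benjamini-Hochberg adjustment). At an unadjusted p under 0.05, 4 members passed. The median log2 fold change was -1.30 over the 9 members and 0.07 over all tested genes. In sorted bulk cells, fewer cells of a type and less RNA per cell cannot be told apart.

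**Figure D1:**
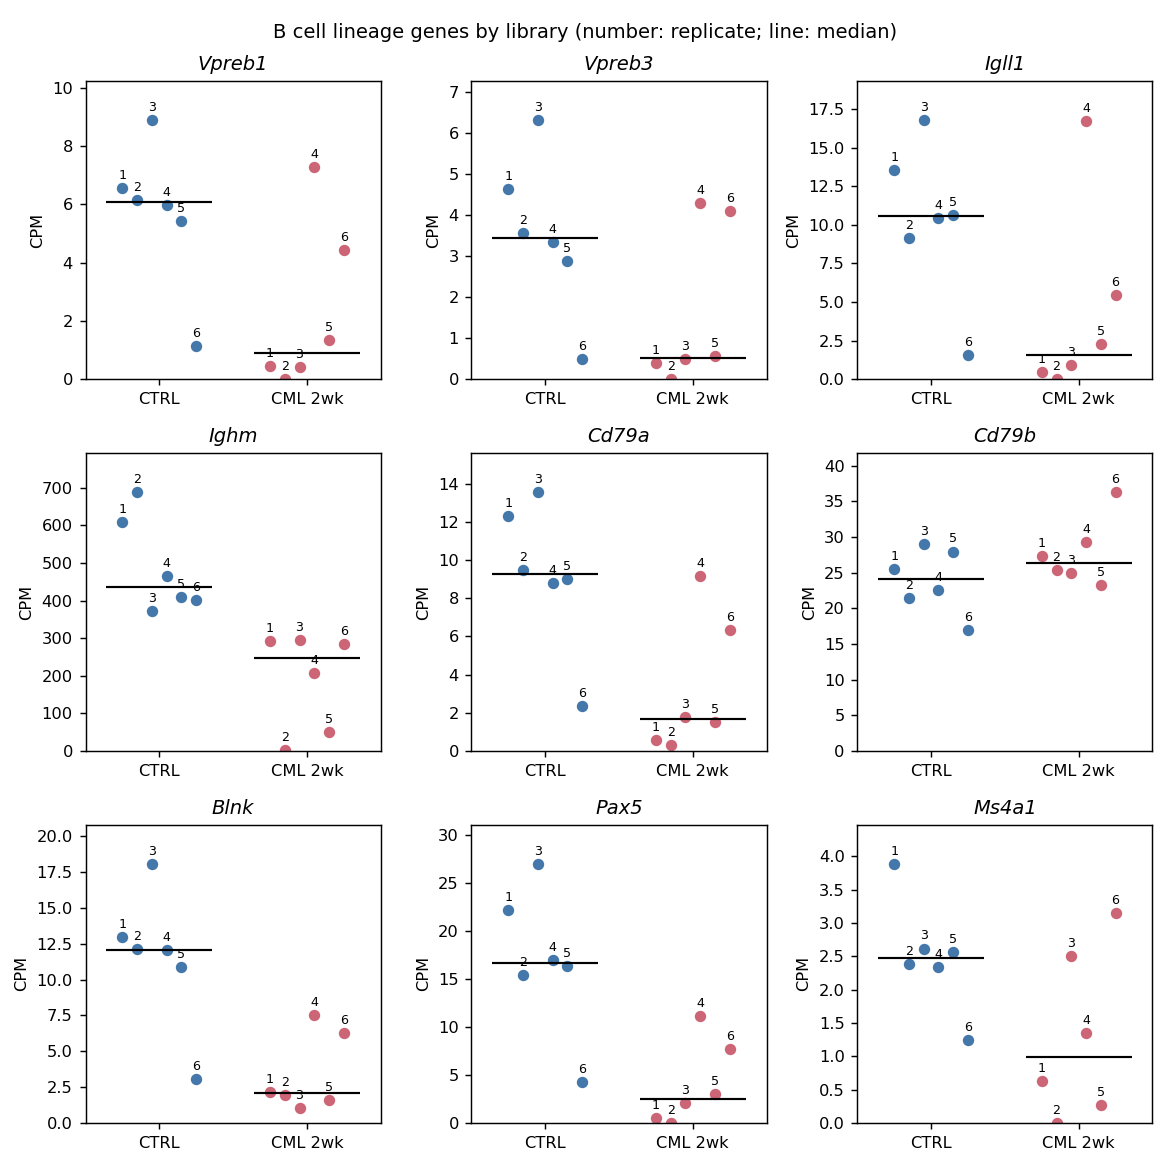
CPM (linear axis from 0) of each member in each library of the CTRL and CML 2wk groups, with the replicate number at each point and a line at the group median. CTRL replicate 6 is the lowest CTRL library for 8 of 9 members, and CML 2wk replicates 4 and 6 are the top pair of their group for 7 of 9.

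Pax5, the factor that commits cells to the B lineage and keeps them there, was measured at 4.30 CPM in the lowest CTRL library, 16.7 at the median and 27.0 in the highest. In CML 2wk it was at 0, 2.52 and 11.1 CPM in the same order. The groups overlapped, because CTRL replicate 6 (4.30 CPM) lay below CML 2wk replicates 4 (11.1 CPM) and 6 (7.75 CPM), while the other 4 CML 2wk libraries were below every CTRL library. The edgeR adjusted p was 0.0225. It passed 0.05 in 11 of the 12 fits that left out 1 library and not without CTRL replicate 3 (adjusted p = 0.0506), nor with the DESeq2 test (0.0560).

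Blnk, the adaptor that links the receptor's kinase Syk to downstream enzymes, was at 3.09, 12.1 and 18.1 CPM in the lowest, median and highest CTRL library. In CML 2wk these were 1.04, 2.06 and 7.54 CPM. Here too 4 CML 2wk libraries lay below every CTRL library, and replicates 4 (7.54 CPM) and 6 (6.27 CPM) lay above CTRL replicate 6 but below the other 5. The edgeR adjusted p was 0.00543, and it stayed between 0.00150 and 0.0147 when each library was left out in turn.

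Ighm, the constant region of the mu heavy chain, was the only member with no overlap between the groups. CTRL libraries ran from 373 CPM through a median of 437 to 690, and CML 2wk libraries from 3.04 through a median of 246 to 296. All 6 CML 2wk libraries were below all 6 CTRL libraries, which holds for 20.6% of all tested genes. The fold change (log2 -1.38, SE 0.63) gave an adjusted p of 0.0704 in edgeR. CML 2wk replicate 2, at 3.04 CPM, and replicate 5, at 50.9 CPM, stood far below the 209 to 296 CPM of the other 4. Without CML 2wk replicate 2 the log2 fold change was -1.13 and the adjusted p was 0.00777.

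The surrogate light chain is restricted to precursors. Vpreb1, which encodes one of its 2 proteins, was at 1.13, 6.07 and 8.90 CPM (lowest, median, highest) in CTRL and at 0, 0.902 and 7.27 CPM in CML 2wk. Igll1, which encodes the other, was at 1.58, 10.5 and 16.8 CPM in CTRL and at 0, 1.60 and 16.7 CPM in CML 2wk. Vpreb3, a related protein that associates with immunoglobulin chains in the precursor, was at 0.491, 3.45 and 6.32 CPM in CTRL and at 0, 0.526 and 4.29 CPM in CML 2wk.

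For each of these 3 genes, 3 CML 2wk libraries were below every CTRL library, and replicates 4, 5 and 6 lay within the CTRL range. For Vpreb3, CML 2wk replicate 3 was in effect level with CTRL replicate 6 (0.4901 against 0.4905 CPM, from 8 and 13 counts). Replicate 5 was just above CTRL replicate 6, the lowest CTRL library, and below the other 5, with 1.35 CPM of Vpreb1, 2.29 of Igll1 and 0.563 of Vpreb3. The log2 fold changes were -1.30 (SE 0.76) for Vpreb1, -1.27 (SE 0.83) for Igll1 and -1.12 (SE 0.77) for Vpreb3, with edgeR adjusted p-values of 0.156, 0.202 and 0.223. CML 2wk replicate 4 set the call for a pair of them. Without it, Vpreb1 (log2 fold change -2.08, adjusted p = 0.0311) and Igll1 (-2.49, adjusted p = 0.0142) passed the test, and Vpreb3 (-1.68, adjusted p = 0.0899) did not.

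Vpreb1 shares reads with a near copy. In the GENCODE vM21 transcripts, 18.8% of its 50-base windows are also found in Vpreb2, and its exons overlap those of Top3b on the opposite strand. Vpreb2 itself was measured at 0.453 to 1.72 CPM in CTRL and 0 to 2.06 CPM in CML 2wk (log2 fold change -0.77, SE 0.74, adjusted p = 0.382). The strand setting and the handling of reads that map to several genes are not given in the sources used here, so the counts of Vpreb1 are uncertain. Pax5 overlaps 5730488B01Rik and Gm12462 on the opposite strand, and 8.31% of the windows of Cd79a are found in Gm32220.

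Igα and Igβ form the signalling pair of the receptor. Cd79a, which encodes Igα, was at 2.34, 9.25 and 13.6 CPM in CTRL and at 0.299, 1.66 and 9.17 CPM in CML 2wk. The overlap again came from CTRL replicate 6 and from CML 2wk replicates 4 and 6, and 4 CML 2wk libraries were below every CTRL library. The log2 fold change of -1.51 (SE 0.64) had an adjusted p of 0.0555 in edgeR, which fell to 0.00991 without CML 2wk replicate 4, 0.0344 without CML 2wk replicate 6 and 0.0333 without CTRL replicate 6.

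Cd79b, which encodes Igβ, was at 17.0, 24.1 and 29.0 CPM in CTRL and at 23.3, 26.4 and 36.4 CPM in CML 2wk. No CML 2wk library was below the CTRL range, and CML 2wk replicate 2, with 0 counts for 5 other members, had 25.4 CPM. The log2 fold change was 0.21 (SE 0.13, edgeR adjusted p = 0.185) and was positive in every alternative tried. The coefficient of variation of Cd79b over CML 2wk libraries was 16.9%, against 69.0% to 148% for the other 8 members.

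Ms4a1 was the lowest of the members per length. It was at 1.25, 2.47 and 3.89 CPM in CTRL and at 0, 0.990 and 3.16 CPM in CML 2wk. CML 2wk replicates 3 (2.51 CPM) and 6 (3.16 CPM) were above the CTRL median and 3 CML 2wk libraries were below the CTRL range. Its log2 fold change was -0.95 (SE 0.63, edgeR adjusted p = 0.205), and the adjusted p was 0.0631 to 0.348 when each library was left out in turn.

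**Figure D2:**
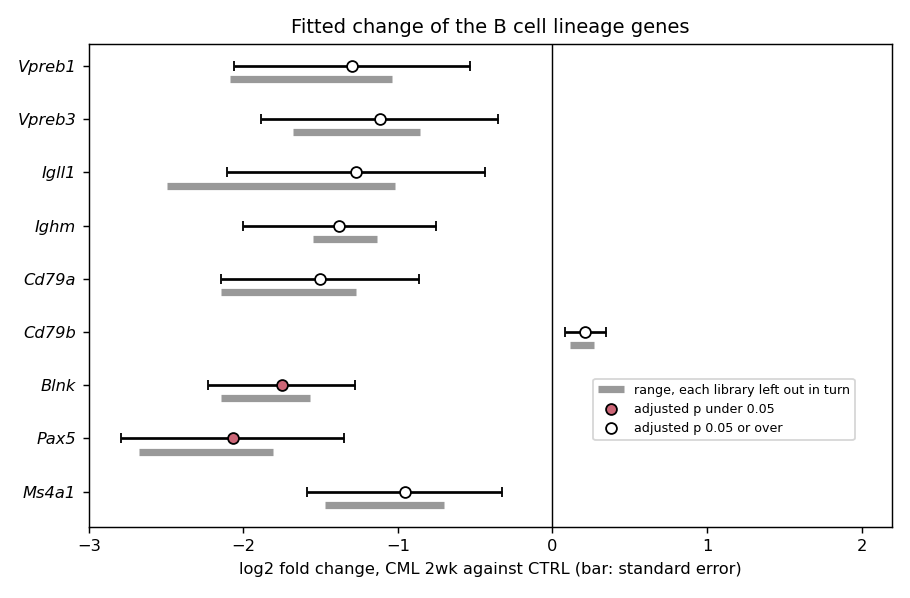
Fitted log2 fold change of each member, CML 2wk against CTRL, with its standard error (black bar) and, in grey, the range when each of the 12 libraries was left out in turn. The filled points, Blnk at -1.75 and Pax5 at -2.07, have an adjusted p under 0.05, and Cd79b alone lies above 0, at 0.21.

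Per length, the members fell into 3 tiers. On the scale of CPM per kilobase of merged exons, the CTRL medians were 232 for Ighm, 16.8 for Cd79b, 6.35 for Cd79a, 5.06 for Vpreb1, 4.87 for Igll1, 4.02 for Vpreb3, 2.02 for Blnk, 1.88 for Pax5 and 0.400 for Ms4a1. Ighm (198 to 366 over the CTRL libraries) and Cd79b (11.9 to 20.3) were each separate from the gene next below, while the ranges of all other neighbours in the order overlapped. The order of the medians was the same in CML 2wk, from 131 for Ighm and 18.4 for Cd79b through 1.14 for Cd79a to 0.160 for Ms4a1. Exon lengths are those of GENCODE vM21, and the annotation used for counting may differ.

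Promoter sequences were at hand for 6 members (RefSeq, GRCm38.p6), and those of 5 are printed because each holds an octamer or an E-box of the kind found at B cell promoters. The octamer is the site of Pou2f1 and Pou2f2, and E-boxes are the sites of E2A. Each line gives the 200 bases before the annotated start, 5′ to 3′ on the gene's strand, with the matches in capitals on either strand.
Vpreb3: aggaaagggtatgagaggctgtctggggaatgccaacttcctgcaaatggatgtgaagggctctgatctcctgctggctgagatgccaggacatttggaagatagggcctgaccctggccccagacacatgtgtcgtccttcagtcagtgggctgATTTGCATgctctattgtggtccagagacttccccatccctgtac
Blnk: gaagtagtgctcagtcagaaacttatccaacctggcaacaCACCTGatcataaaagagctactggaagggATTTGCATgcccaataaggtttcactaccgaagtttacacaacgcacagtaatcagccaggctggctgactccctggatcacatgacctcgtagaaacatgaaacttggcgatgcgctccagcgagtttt
Cd79a: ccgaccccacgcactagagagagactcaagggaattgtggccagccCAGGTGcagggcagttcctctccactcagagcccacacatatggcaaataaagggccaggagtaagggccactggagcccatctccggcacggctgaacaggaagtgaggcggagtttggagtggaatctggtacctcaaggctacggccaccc
Vpreb1: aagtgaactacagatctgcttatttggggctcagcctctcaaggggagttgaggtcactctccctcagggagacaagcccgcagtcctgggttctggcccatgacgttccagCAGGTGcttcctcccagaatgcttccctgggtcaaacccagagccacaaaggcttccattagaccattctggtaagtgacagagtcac
Igll1: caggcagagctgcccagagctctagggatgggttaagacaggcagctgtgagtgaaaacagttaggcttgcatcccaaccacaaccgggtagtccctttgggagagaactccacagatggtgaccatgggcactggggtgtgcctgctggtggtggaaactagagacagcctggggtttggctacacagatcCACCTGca

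They lie at chr10:75948100-75948299 (Vpreb3, plus strand), chr19:40994222-40994421 (Blnk, minus), chr7:24897297-24897496 (Cd79a, plus), chr16:16869256-16869455 (Vpreb1, minus) and chr16:16863986-16864185 (Igll1, minus). The search covered 250 bases before each start on both strands. The octamer ATTTGCAT was found for 2 of 6 members, Vpreb3 at position -45 and Blnk at -130, and in 1.60% of all 32851 promoters. The E-box CAGGTG was found for 4 of 6, Cd79a at -154, Igll1 at -8, Vpreb1 at -88 and Blnk at -160, and in 17.2% of all promoters. The looser form CANNTG, which includes CAGGTG, was found for 6 of 6 and in 66.2% of all promoters. Pax5 was searched but had only the looser E-box. Matches describe letters in these windows and are not shown to be bound.

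Most members varied together within each group. When the group mean was taken from the log2 CPM of each gene, CTRL replicate 6 lay -1.52 from its group over the mean of the 9 members. CML 2wk replicate 2 lay at -2.98, replicate 4 at 1.94 and replicate 6 at 1.74. Pearson's r of each member with the mean of the other 8, over the 12 libraries, was 0.95 to 0.98 for Vpreb1, Vpreb3, Igll1, Cd79a and Pax5, and 0.61 to 0.81 for Ms4a1, Blnk, Ighm and Cd79b. For Ighm this rested on CML 2wk replicate 2, with an r of 0.67 with that library and 0.28 without it, while the r of Vpreb3 was 0.98 both ways. These are descriptions over 12 libraries that share sort and depth.

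Among the 5 genes outside the members with the most similar course, of those with a mean CPM of at least 1, were Gm30948, Rag1, Rag2 and Irf4. Their r with the mean of the members was 0.97, 0.96, 0.95 and 0.95 over 12 libraries, with Spearman's rho of 0.94, 0.89, 0.89 and 0.82. Without the pair of libraries farthest from the median, CML 2wk replicates 2 and 4, r was 0.85 to 0.94. Gm30948 was at 0.415 to 1.98 CPM in CTRL and 0 to 1.79 CPM in CML 2wk, and Irf4, a factor of B cell maturation and plasma cells, was at 2.57 to 7.89 and 0 to 6.66 CPM.

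**Figure D3:**
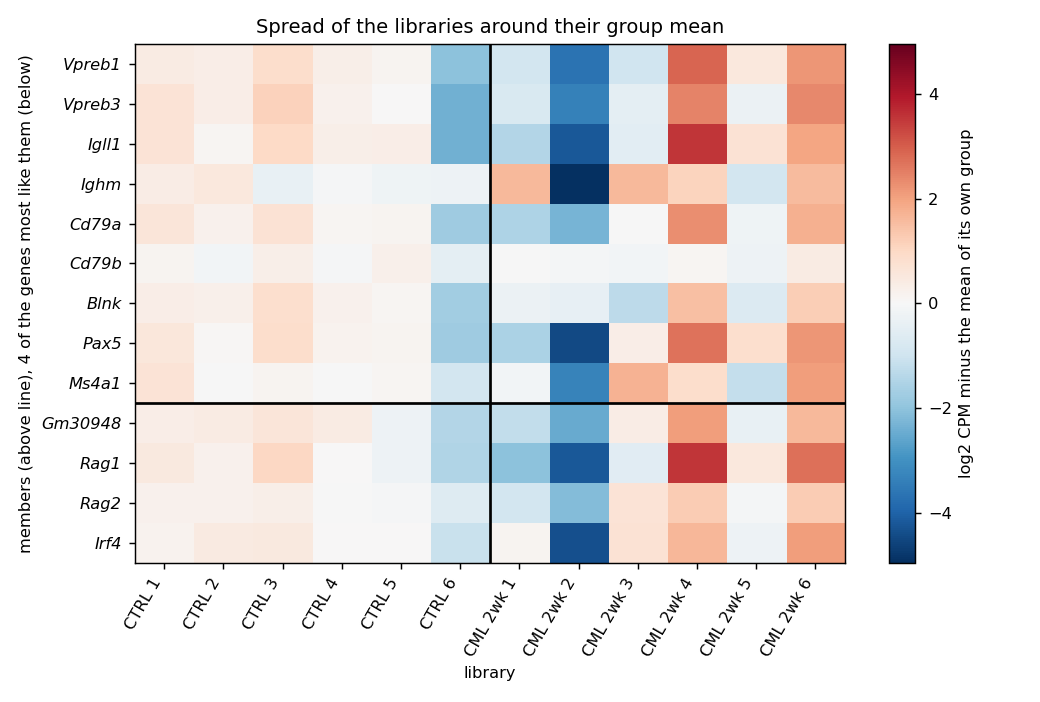
Log2 CPM minus the mean of its own group, for the 9 members (above the line) and 4 of the most similar genes (below), by library. CTRL replicate 6 and CML 2wk replicate 2 are low over most genes, CML 2wk replicates 4 and 6 are high, and Cd79b stays near 0 throughout.

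CML 2wk replicates 2 and 4 also differed from the rest in genes of other cell types. The summed CPM of 10 stromal genes was 121 to 156 in CTRL and 67.8 to 2966 in CML 2wk, with 2966 in replicate 2 and 556 in replicate 4 but 68.9 in replicate 6. Of the 8 stromal genes tested, 4 were called higher (Col3a1, Sparc, Col1a1 and Col1a2), and without CML 2wk replicate 2 this was 2. T and NK cell genes summed to 98.0 to 125 CPM in CTRL and 97.3 to 212 in CML 2wk, and 4 of 9 tested were lower and 1 higher (7 lower without CML 2wk replicate 6). Plasmacytoid dendritic cell genes summed to 440 to 487 and 255 to 597 CPM (5 of 9 lower, 1 higher), and the monocyte list to 169 to 405 and 158 to 319 CPM (0 of 9 lower, 1 higher). The neutrophil list stood at 2207 to 4523 and 2380 to 6538 CPM (4 of 10 lower, 4 higher), and without CTRL replicate 4, which had the 4523 CPM, 1 gene was called lower. The erythroid list stood at 93.8 to 196 and 23.7 to 66.7 CPM (7 of 9 lower, 0 higher). The stem and progenitor list itself fell in 9 of 10 genes, from a summed 2407 to 2769 CPM to 1266 to 1674 CPM. CML 2wk replicate 6 had the highest sum of its group for the T and NK cell, plasmacytoid dendritic cell and neutrophil lists. In that library Nkg7 made up 186 of the 212 CPM of the T and NK cell list. Ly6c2 made up 317 of the 597 CPM of the plasmacytoid list, and other leukocytes also express both genes. Cd3e (0.839 CPM) and Cd8a (1.73 CPM) were within the CTRL range but the highest of CML 2wk. Trbc1 (2.91 CPM), Cd3g (0.987 CPM) and the plasmacytoid gene Cox6a2 (36.2 CPM) were above every other library. Others, such as Siglech (0.641 CPM), Cd4 (0.987 CPM) and Irf8 (104 CPM), were below the CTRL range. The sum over 18 genes of mature B cells was 982 CPM, the highest of CML 2wk (median 244) and within the CTRL range. Cd74 was at 394 and H2-Aa at 228 CPM, also the highest of CML 2wk. CTRL replicate 6 had the lowest stromal and monocyte sums of its group. It was within the range of the other CTRL libraries for the T and NK cell, plasmacytoid, neutrophil, erythroid, and stem and progenitor lists. The part of these cells in the B lineage values was not tested. Without both CTRL replicate 6 and CML 2wk replicate 2, a choice made after seeing the data, 4 members were called lower (Ighm, Cd79a, Blnk and Pax5).

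Genes that act beside the members in the B lineage were lower more often than higher. Of 68 tested genes in 6 lists (transcription factors, recombination and early lymphoid genes, receptor signalling, mature B cell, plasma cell and light chain constant genes), 40 were called lower and 3 higher, beside 29.0% and 30.6% of all tested genes. Their median log2 fold change was -0.82, against 0.07 over all genes. Fcgr2b and Xbp1 were among the 3 that rose. The lean was not particular to the B lineage, as 9 of 10 stem and progenitor genes and 7 of 9 erythroid genes were also lower. The monocyte list (0 of 9 lower) did not share it. In the stromal list 0 of 8 were called lower, but CML 2wk replicates 2 and 4 stood apart there. In the other 4 CML 2wk libraries Col1a1, Col1a2, Fn1, Bgn and Cxcl12 were below every CTRL library, while Sparc and Pdgfrb were below in none. Some of the lower genes, such as Ikzf1, Sox4 and Flt3, were at 382 CPM or more in every CTRL library of these sorted stem and progenitor cells.

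**Figure D4:**
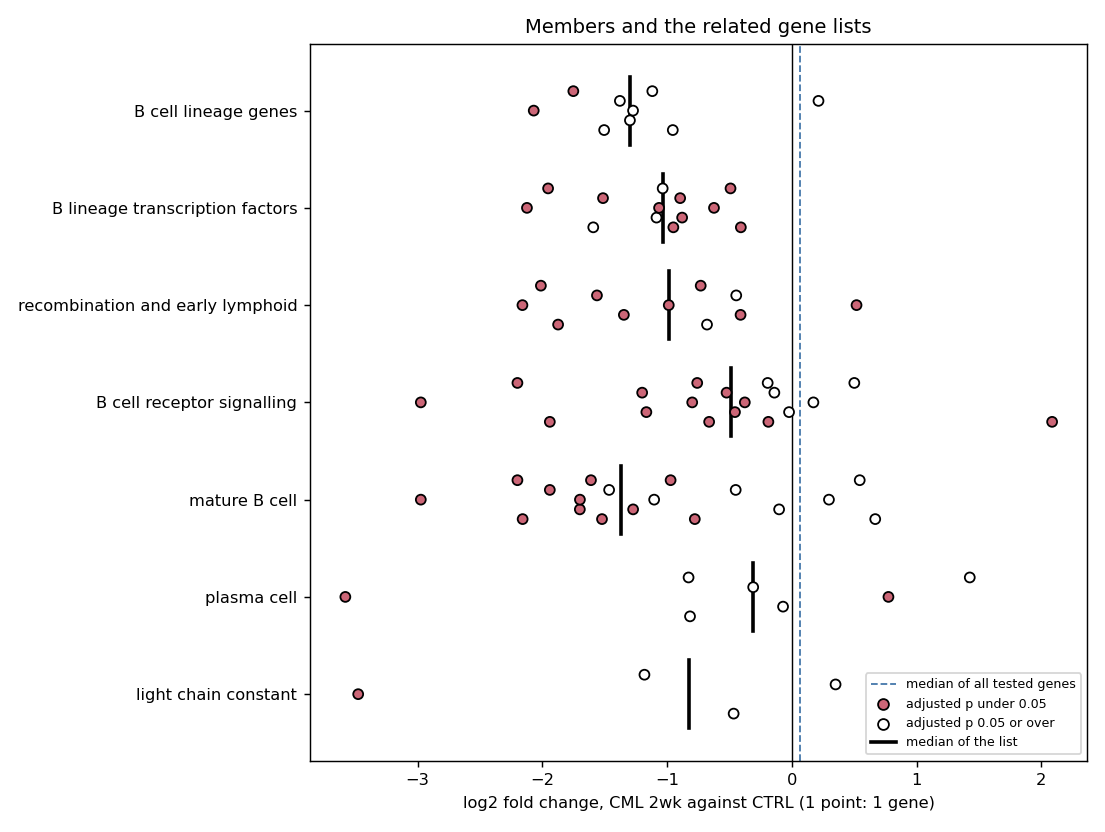
Log2 fold change, CML 2wk against CTRL, of each tested gene in the members and in 6 related lists, filled where the edgeR adjusted p was under 0.05. Black bars are list medians, from -1.37 for mature B cell genes to -0.31 for plasma cell genes, and the dashed line is the median of all tested genes at 0.07.

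Among 13 transcription factors of the lineage, 10 fell and 0 rose (median log2 fold change -1.04). The largest falls were in Spib (-2.12, SE 0.45), an Ets factor of B and plasmacytoid dendritic cells, in the Ikaros relative Ikzf3 (-1.95, SE 0.46), and in the octamer co-activator Pou2af1 (-1.51, SE 0.61). Their edgeR adjusted p-values were 0.000899, 0.00211 and 0.0433, and that of Pou2af1 was 0.0824 without CML 2wk replicate 1 and over 0.05 in 8 of 12 fits without 1 library. Ebf1, which acts upstream of Pax5, was at 2.94, 15.2 and 21.8 CPM in the lowest, median and highest CTRL library and at 0.227, 2.44 and 24.4 in CML 2wk. Its fold change (-1.04, SE 0.77, adjusted p = 0.259) did not pass, and without CML 2wk replicate 4 it was -2.03 with an adjusted p of 0.0281.

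Of 11 genes of recombination and early lymphoid progenitors, 8 fell and 1 rose (median -0.99). Dntt, which adds bases at the joins of antigen receptor genes, went from 235, 326 and 451 CPM (lowest, median, highest) in CTRL to 21.6, 99.8 and 152 CPM in CML 2wk, without overlap (log2 fold change -1.87, SE 0.33, edgeR adjusted p = 0.000184). Ly6d, a mark of B-biased lymphoid progenitors, fell by 2.16 on the log2 scale (SE 0.52, adjusted p = 0.00246), from 1.28 to 4.26 CPM to 0 to 1.23 CPM. Of the recombinase pair, Rag2 fell (-1.56, SE 0.44, adjusted p = 0.00670), and Rag1 (-2.01, SE 0.82, adjusted p = 0.0474) passed in 4 of 12 fits without 1 library and had an adjusted p of 0.11 with the DESeq2 test. Flt3, the receptor of lymphoid-primed progenitors, fell from 382 to 493 CPM to 192 to 359 CPM (-0.73, SE 0.16, adjusted p = 0.0011). Il7r, the receptor for the main growth factor of B precursors, was at 6.64 to 20.4 and 5.33 to 15.9 CPM (-0.68, SE 0.29, adjusted p = 0.0544, and 0.00609 without CML 2wk replicate 2).

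In B cell receptor signalling, 12 of 18 genes fell and 1 rose (median -0.49). The kinase Blk (-2.97, SE 0.68) and the inhibitory receptor Cd22 (-2.20, SE 0.50) fell most, with edgeR adjusted p-values of 0.00162 and 0.00158. Fcgr2b, the inhibitory Fc receptor, which myeloid cells also express, rose from 22.8 to 27.9 CPM in CTRL to 74.3 to 162 CPM in CML 2wk (2.09, SE 0.16, adjusted p = 1.42e-07).

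Of 18 genes of mature B cells, 11 fell and 0 rose (median -1.37). Among them were Blk and Cd22, also in the signalling list, and Fcmr, the IgM Fc receptor (-2.16, SE 0.72, edgeR adjusted p = 0.0177). Fcmr was near the floor, at 0.415 to 2.06 CPM in CTRL and 0 to 0.789 CPM in CML 2wk. Ighd, the delta constant region of mature naive B cells, fell from 3.21 to 6.49 CPM to 0 to 2.98 CPM (-1.70, SE 0.56, adjusted p = 0.0163). Fcer2a (CD23) and Cr2 (CD21), receptors of mature B cells, had fold changes of 0.67 (SE 0.28) and 0.54 (SE 0.24) and adjusted p-values of 0.0543 and 0.0653. Without CML 2wk replicate 2 both passed, at 0.0101 and 0.00202, as they did with upper-quartile factors (0.0386 and 0.0430).

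Of 7 plasma cell genes tested, 1 fell and 1 rose. Ighg2b, a constant region of switched antibodies, fell (-3.58, SE 0.72, edgeR adjusted p = 0.000619), and Xbp1, a factor of secretory cells of many kinds, rose (0.77, SE 0.15, adjusted p = 0.000366). Ighg2b was at 0.415 to 9.74 CPM in CTRL and 0 to 0.814 CPM in CML 2wk. Of 4 light chain constant genes tested, 1 fell, Iglc2 (-3.48, SE 0.65, adjusted p = 0.000331), and Iglc4 had 0 counts in all 12 libraries. Iglc2 was at 0.830 to 4.56 CPM in CTRL and 0 to 0.397 CPM in CML 2wk. Igkc, the kappa constant region, was at 81.2, 133 and 214 CPM in CTRL and at 1.71, 124 and 178 CPM in CML 2wk, with a log2 fold change of -0.47 (SE 0.62, adjusted p = 0.537). The Igkc ranges overlapped over most of their length, and CML 2wk replicates 2 and 5 were again the lowest.

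Heavy and kappa variable segments gave a view of the immunoglobulin transcripts beyond Ighm. Summed over 185 annotated Ighv segments, CTRL libraries had 83.2 to 160 CPM (median 99.8) and CML 2wk libraries 8.86 to 97.1 CPM (median 60.2). Over 160 Igkv segments the sums were 68.9 to 178 CPM (median 102) and 0.513 to 158 CPM (median 98.9). Joining segments of the heavy chain (Ighj) summed to 7.02 to 9.04 CPM in CTRL and 0 to 4.14 CPM in CML 2wk, without overlap. No test was run on these sums or on the shares and numbers of segments that follow.

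CML 2wk libraries held fewer different segments. Between 82 and 109 Ighv segments had a count in a CTRL library and 16 to 56 in a CML 2wk library, and for Igkv the numbers were 24 to 57 and 2 to 13. Libraries with more counts show more segments, so the number expected in 200 counts of the class was computed for each library. For Ighv it was 35.1 to 43.0 in CTRL and 15.9 to 34.2 in CML 2wk, and for Igkv it was 14.0 to 22.6 in CTRL and 3.51 to 7.74 in 5 CML 2wk libraries. CML 2wk replicate 2 had 12 Igkv counts and has no value for Igkv. The groups did not overlap in either class at equal counts. Counts are of reads, not of molecules or cells.

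In 4 CML 2wk libraries a single pair of segments made up a large part of both classes, Ighv11-2 and Igkv14-126. This heavy and light chain pair is known from B-1 cells, where it forms antibodies to phosphatidylcholine. The segments and these 4 libraries were chosen after their values were seen. Their reference sequences (GENCODE vM21, GRCm38) are printed because each took the largest share of its class in these 4 libraries. Each line gives the last 240 bases of the germline segment, with the conserved cysteine codon just before the third complementarity-determining region in capitals.
Ighv11-2: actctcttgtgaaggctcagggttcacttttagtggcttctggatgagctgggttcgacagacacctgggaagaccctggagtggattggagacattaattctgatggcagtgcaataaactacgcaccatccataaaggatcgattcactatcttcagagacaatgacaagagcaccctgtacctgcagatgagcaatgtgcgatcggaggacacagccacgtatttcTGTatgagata
Igkv14-126: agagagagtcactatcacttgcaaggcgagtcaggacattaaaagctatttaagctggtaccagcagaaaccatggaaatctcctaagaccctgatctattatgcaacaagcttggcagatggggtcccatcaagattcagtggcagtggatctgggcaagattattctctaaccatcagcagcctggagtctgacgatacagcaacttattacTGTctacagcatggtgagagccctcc

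The first lies at chr12:114048241-114048480 on the minus strand and the second at chr6:67896403-67896642 on the plus strand. Ighv11-2 took 41.9% of all Ighv counts in CML 2wk replicate 1, 33.8% in replicate 3, 66.8% in replicate 4 and 59.8% in replicate 6. It took 0 of 207 counts in replicate 2, where 3 counts would be 1.45%, and 0.333% in replicate 5 (exact 95% interval 0.0688% to 0.971%). The leading segment of replicate 5 was Ighv6-3, at 25.9%. In CTRL the share of Ighv11-2 was 0.269%, 8.83% and 14.4% in the lowest, median and highest library.

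Igkv14-126 followed the same libraries. Its share of all Igkv counts was 61.1% in CML 2wk replicate 1, 44.1% in replicate 3, 97.2% in replicate 4 (exact 95% interval 96.4% to 97.9%) and 80.9% in replicate 6. It was 0 of 378 counts in replicate 5, where 3 counts would be 0.794% and where Igkv4-55 led with 57.7%, and 0 of 12 in replicate 2, where 3 counts would be 25%. In CTRL the share was 0.257%, 14.0% and 28.3% in the lowest, median and highest library, and CTRL replicate 5, the lowest for Ighv11-2, was also the lowest for Igkv14-126. The pair also led in CTRL libraries. Both segments led their class in CTRL replicate 2 (14.4% and 28.3%), and Igkv14-126 led in CTRL replicate 4 (23.4%). For both segments the shares in these 4 CML 2wk libraries, which were picked out for their high shares, were above those in every CTRL library. Over all CML 2wk libraries the shares overlapped those of CTRL, at 0% to 66.8% for Ighv11-2 and 0% to 97.2% for Igkv14-126.

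As levels, Ighv11-2 was at 0.266 to 23.2 CPM in CTRL and 0 to 41.7 CPM in CML 2wk, and its log2 fold change of 1.36 (SE 1.01) did not pass (edgeR adjusted p = 0.259). Igkv14-126 was at 0.266 to 50.5 and 0 to 103 CPM (1.55, SE 1.08, adjusted p = 0.231). Of the 50-base windows of Ighv11-2, 38.6% are also found in its neighbour Ighv11-1, and 0 windows of Igkv14-126 occur in another annotated gene, so the kappa share is the less ambiguous of the pair. CML 2wk replicate 5, without this pair, still had 50.9 CPM of Ighm. Replicate 4, with the highest share of both segments, had the highest Vpreb1, Igll1 and Pax5 of its group. The share did not track these genes over the group. Replicates 1 and 3, which also held the pair, were below replicate 5 in Vpreb1 (0.453 and 0.429 against 1.35 CPM), Igll1 (0.453 and 0.919 against 2.29 CPM) and Pax5 (0.510 and 2.08 against 2.96 CPM).

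**Figure D5:**
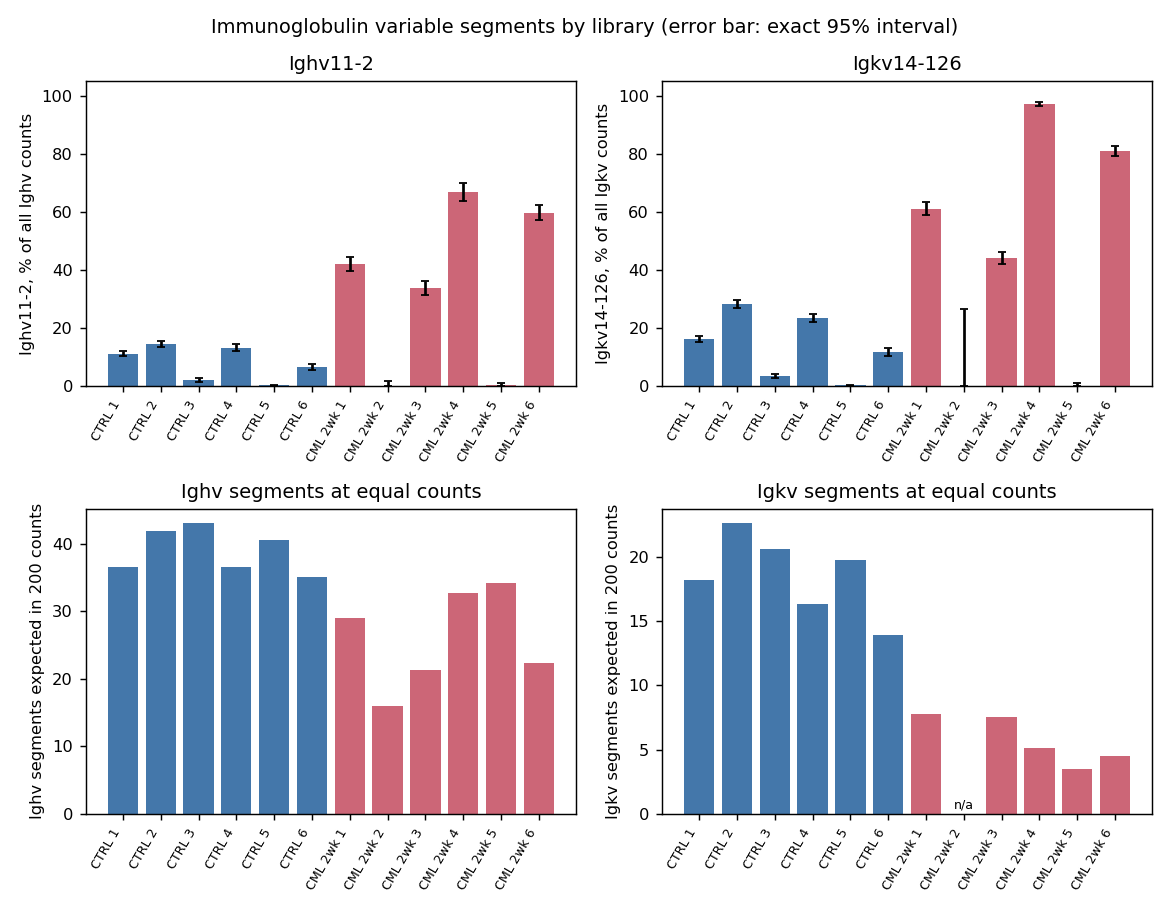
Top, share of Ighv11-2 among Ighv counts and of Igkv14-126 among Igkv counts in each library, with exact 95% binomial intervals. Below, number of segments expected in 200 counts of the class, where every CTRL bar (blue) is taller than every CML 2wk bar (red) and CML 2wk replicate 2 has too few Igkv counts for a value.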

How the data were processed

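Bulk RNA-seq of 12 sorted samples was analysed from the raw counts per gene that the authors deposited, 1 library each. The submitters' processing notes list FastQC 0.11.9, fastp 0.23.2, STAR 2.7.10a, featureCounts 2.0.1 and DESeq2 1.36.0 with GRCm39, while the published methods name another trimmer (Trim Galore!) and aligner (HISAT2), other versions of the rest and a human build, so the pipeline is not settled. Strand setting, annotation and treatment of multi-mapping reads are not given in the sources used here. Symbols were matched by Ensembl identifier (52073 matched, 4675 not).

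Counts were tested with edgeR 4.0.16 in R 4.3.3 (TMM, filterByExpr, quasi-likelihood, 18438 genes, Benjamini-Hochberg threshold 0.05, all 12 libraries, group as the only term), checked on simulated counts. The simulated counts had few changed genes and the same spread in both groups. They do not cover a comparison with 59.5% of genes called and more spread in CML 2wk. DESeq2 1.42.0, other size factors and filters, the replicate number as a block, and leaving out libraries were alternatives. Log2 CPM used a prior count of 2. Members and lists were chosen with earlier results of these data known. Named are all members, up to 3 genes per direction of each related list with the largest change among those called, genes of a list without counts, the 5 genes most like the members, and a set of defining markers. Of these, 2 genes are not reported here. Other figures used Python 3.11.15, scipy 1.17.1 and matplotlib 3.10.9.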

Additional observations from a re-analysis of the deposited data

Results flagged for a closer look

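Igll1 in CML 2wk replicate 4 stood apart from its group by Dixon's test at the 95% level. It was at 16.7 CPM, and the next highest CML 2wk library, replicate 6, was at 5.48 CPM. Of 26 groups of 6 values examined (the 9 members, both variable segment classes and the segment pair in each group), 1 met this criterion, and chance gives about 1 in 20, or 1.3 here.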

How the results depend on the processing

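The number of members called lower (2) was 1 with the DESeq2 test, 1 to 5 when each library was left out in turn, and 4 without CTRL replicate 6 and CML 2wk replicate 2 together. The lowest, 1, came without CTRL replicate 3 (Pax5 lost) and the highest, 5, without CML 2wk replicate 4 (Vpreb1, Igll1 and Cd79a gained). It was 2 with DESeq2 size factors, upper-quartile factors, no filter, or a filter of 1 CPM in 6 libraries. Related B lineage genes called higher (3) became 6 with upper-quartile factors and with the filter of 1 CPM (Cr2, Fcer2a and Prkcb added), 5 without the pair of libraries, and 3 to 5 when each library was left out. The cause of these moves was not tested. Over all genes, 4752 to 5998 were called lower and 4786 to 6352 higher with all libraries under the other settings. No fold change of a member or other named gene turned its direction in any alternative run. With the replicate block, 3 members were called lower, since Cd79a passed (log2 fold change -2.13, edgeR adjusted p = 0.0437), and 5189 genes were lower and 4786 higher. Replicate numbers do not appear to pair the libraries, as the deviations of libraries with the same number correlated at -0.13 to 0.068 over genes and 1 of 6 CTRL libraries correlated best with its own number. The spread among CML 2wk libraries (biological coefficient of variation 32.4%, against 10.9% in CTRL) and counts near 0 in several libraries limit the precision of the members.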

Other observations

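The balance of kappa to mu transcripts differed between the groups within each library, where scaling plays no part. Igkc had 0.202 to 0.325 counts for each Ighm count in CTRL (median 0.277) and 0.388 to 0.603 in CML 2wk (median 0.530), so that all 6 CML 2wk libraries were above all 6 CTRL libraries. In CML 2wk replicate 2 the ratio rests on 71 Ighm counts. This ratio was chosen after its values were seen, and no test was run.

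Ighm and Cd79a did not keep a fixed ratio. There were 27.5 to 172 Ighm counts for each Cd79a count in CTRL, with the highest value in replicate 6. In CML 2wk there were 10.1 to 517, with the highest value in replicate 1, where Cd79a had 10 counts and Ighm 5167.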
